A study of Mus musculus with 2 samples.

Results

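The renin genes and the other core genes of the angiotensin system were described in ureters of mouse embryos at E14.5, with and without the gene Rbpj in cells that have expressed Tbx18. The genes were taken by name, from every probe of the array that carried the name Ren1, Ren2, Agt, Ace, Agtr1a, Agtr2 or Atp6ap2. Each of these 7 genes had 1 probe with 4 spots, so the description covers 7 of 39429 probes. All 7 passed the filter on dim probes (on each array, a channel with 2 or more of the 4 spots well above background), as did 26980 probes in all. The genes were chosen by their ratios on these arrays, chiefly those of the renin probes, so the ratios below are a description. A further renin probe, named renin-1-like in the file's annotation (LOC102643057), lies outside that choice and is given beside Ren1 and Ren2.

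The study hybridised RNA of both genotypes together on each of 2 two-colour Agilent arrays. Rbpj-cKO embryos were Tbx18(cre/+);Rbpj(fl/fl), and control embryos were Rbpj(fl/?), with the other allele not given and no Cre allele named. All embryos were of the NMRI strain, and Cre recombinase was made from the Tbx18 locus, which is active in the mesenchyme around the ureteric epithelium. Replicate 1 held male embryos, with Rbpj-cKO in AlexaFluor647 (red) and control in AlexaFluor555 (green). Replicate 2 held female embryos with the dyes exchanged, so that sex, dye orientation and array cannot be told apart in the ratios. The sources used here do not say how many embryos were pooled for a channel.

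The angiotensin system is a hormone cascade that controls blood pressure and salt balance. Renin, a protease, cuts angiotensinogen (Agt) to angiotensin I, and angiotensin-converting enzyme (Ace) turns that into angiotensin II, which acts through type 1 (Agtr1a) and type 2 (Agtr2) receptors. Atp6ap2 encodes the prorenin receptor, which is also an accessory protein of the vacuolar proton pump. Some mouse strains carry a single renin gene, Ren1, and others a second copy, Ren2, known for its high androgen-dependent expression in the salivary gland of adult males. Renin is best known from the juxtaglomerular cells of the kidney and is also made in the fetal adrenal gland and in the gonads. RBPJ, the transcription factor through which Notch receptors act on DNA, is known to sustain renin expression in juxtaglomerular cells. Agtr2 is known for its high expression in fetal mesenchyme, the developing urinary tract included.

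The renin probes are shown first, because Ren1 and Ren2 are close copies and the readouts depend on which part of the transcripts each probe covers. Coordinates of probes are those of the files, on mm9. The Ren1 probe lies at chr1:135250782-135250841 on the plus strand and starts at position 202 of its transcript. The renin-1-like probe lies at chr1:135255035-135255094 on the plus strand and starts at transcript position 806. The Ren2 probe is listed as unmapped on that build and starts at transcript position 1477, so bases 27 to 56 of its 60 are shown, with the polyadenylation hexamer AATAAA in capitals.
Ren1: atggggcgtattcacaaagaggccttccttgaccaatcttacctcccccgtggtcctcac
renin-1-like: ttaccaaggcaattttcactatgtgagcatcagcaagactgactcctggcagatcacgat
Ren2: accgAATAAAgatttcatgtttaaagccaa
The Ren2 probe thus covers a stretch near the 3′ end of the transcript, while the other probes start further 5′. Their base composition differs as well, with 55% G and C in the Ren1 probe, 45% in the renin-1-like probe and 35% in the Ren2 probe. In the best ungapped alignment on either strand, the Ren1 and Ren2 probes had 19 matching bases over 59, and their longest shared run was 6 bases. The Ren1 and renin-1-like probes are each annotated to 4 transcripts, of which they share 2, and the Ren2 probe shares 0 with either. Because the probes come from different parts of the transcripts, the match between them does not tell how well the Ren1 probe binds Ren2 RNA or the reverse, and cross-hybridisation was not tested.

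Across the whole table the arrays gave few same-way differences, and this sets the background for the members. Spots well above background made up 67.7% to 70.1% in the 4 channels, and no spot was saturated. Rbpj itself was lower in Rbpj-cKO, with log2 ratios of -1.13 and -0.63 by its brighter probe and of -0.48 and -0.37 by the other, on replicates 1 and 2. The ratios of the arrays ran opposite ways across all probes (Pearson's r = -0.365, with no p because probes are not replicates), and directions follow the dyes in the labels. The limma test of the mean ratio called 0 of 26980 probes at an adjusted p under 0.05 (0%), and 468 (1.73%) had an unadjusted p under 0.05. The library labelled female Rbpj-cKO carried signal of the Y-linked genes Ddx3y and Eif2s3y, at 8.05% and 8.85% of their level in male Rbpj-cKO, and every replicate 2 ratio rests on this library. Of the marker lists for the labelled tissue, all 10 urothelial genes and all 10 genes of the ureteric mesenchyme and smooth muscle passed the filter, as did all 10 endothelial and all 12 chromaffin and sympathetic genes, so the filter does not single out the ureter.

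Ren2 was higher in Rbpj-cKO on both arrays. Its median processed signal, the scanner software's background-subtracted intensity, was 1412 in male control and 3717 in male Rbpj-cKO. In the female pair it was 83.6 in control and 278.8 in Rbpj-cKO. All 4 spots were well above background in every channel, and within each array the ranges of the spots did not overlap between the genotypes. The normalized ratio of Rbpj-cKO over control, on the log2 scale, was 1.38 for replicate 1 and 1.49 for replicate 2, a mean of 1.43 ± 0.080 (SD, n = 2 arrays) or 2.70-fold. Single spots ran from 1.35 to 1.42 on replicate 1 and from 1.42 to 1.59 on replicate 2. The mean was the 5th highest of 26980 probes. In the female pair Rbpj-cKO exceeded control by 195.2 units of processed signal, whereas the Ddx3y and Eif2s3y shares of the male Rbpj-cKO signal of Ren2 come to 299.3 and 328.9 units. Both shares are larger than the whole female Rbpj-cKO signal of 278.8 units. The part of that Y-linked signal in the female ratio was not tested, and without the female array the Ren2 ratio is 1.38. In whole ureters, more cells that make a transcript and more RNA per cell cannot be told apart.

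**Figure D1:**
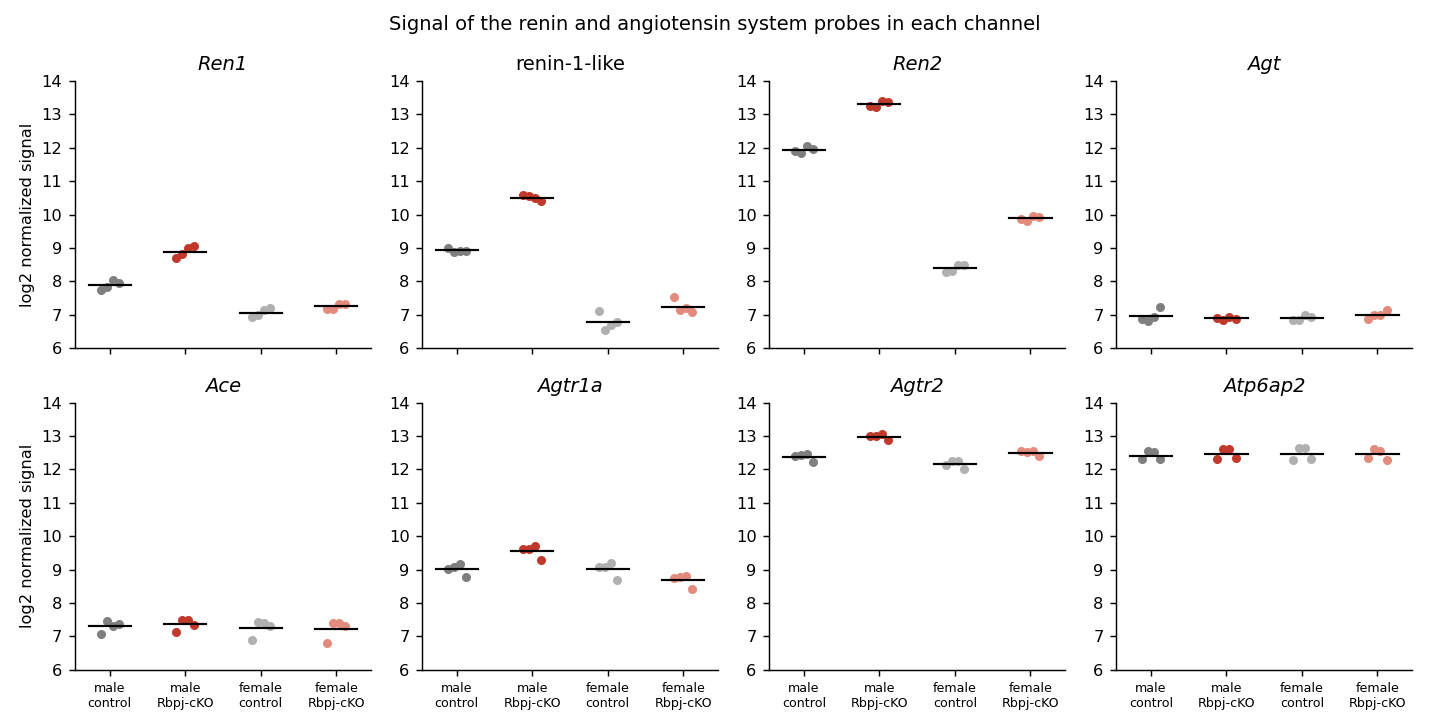
Normalized log2 signal (y axis) of the 4 spots of each probe in the 4 channels (x axis), with a panel for each gene; points are spots and lines their means. Ren2 runs from 8.40 in female control to 13.33 in male Rbpj-cKO, while Agt, Ace and Atp6ap2 stay level over the channels.

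Ren1 was higher mainly in the male pair. Its median processed signal was 56.8 in male control and 137 in male Rbpj-cKO, against 18.8 in female control and 23.9 in female Rbpj-cKO. The ratio was 2.0-fold on replicate 1 (log2 0.997) and 1.14-fold on replicate 2 (log2 0.19). The mean of 0.59 ± 0.57 (SD, n = 2) therefore rests on the male array. Spots ran from 0.96 to 1.10 on replicate 1 and from 0.11 to 0.23 on replicate 2, and these ranges did not overlap. By the processed signals the log2 ratios of Ren1 were larger, 1.24 on replicate 1 and 0.38 on replicate 2. The excess in the female pair was 5.05 units, against Y-linked shares of the male Rbpj-cKO signal of 11 and 12.1 units.

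The renin-1-like probe resembled Ren1 in that its ratio was larger in the male pair. Its median processed signal was 139 in male control, 446.6 in male Rbpj-cKO, 10.6 in female control and 21.5 in female Rbpj-cKO. In female control only 2 of 4 spots were well above background. Its log2 ratios were 1.58 (replicate 1) and 0.45 (replicate 2), a mean of 1.01 ± 0.80 (SD, n = 2). By the processed signals replicate 2 gave 1.03, and with a normexp offset of 10 in place of 50 it gave 0.67, so this dim probe reached 1.5-fold on both arrays under these settings and not under the one used here. Its female excess was 10.9 units, against Y-linked shares of the male signal of 36.0 and 39.5 units.

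Among the receptors, Agtr2 was higher in Rbpj-cKO on both arrays and Agtr1a had opposite signs. Agtr2, the type 2 receptor of angiotensin II (mm9 chrX:21065564-21065623), had median processed signals of 1762 in male control, 2653 in male Rbpj-cKO, 1282 in female control and 1659 in female Rbpj-cKO. Its log2 ratios were 0.61 (1.52-fold) and 0.34 (1.27-fold), a mean of 0.47 ± 0.19 (SD, n = 2) and the 178th highest of the 26980 probes. The spots of control and Rbpj-cKO did not overlap on either array. The female excess of 377 units was larger than the Y-linked shares of the male signal, 213.6 and 234.8 units.

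Agtr1a, the main type 1 receptor (chr13:30474638-30474697), had median processed signals of 158 and 238 in male control and Rbpj-cKO, and of 132 and 104 in the female channels. The log2 ratios were 0.54 and -0.32, so that the mean of 0.11 ± 0.61 (SD, n = 2) describes neither array. Spots lay between 0.51 and 0.60 on replicate 1 and between -0.38 and -0.28 on replicate 2, so the opposite signs were shared by all 4 spots of an array. Atp6ap2, the prorenin receptor (chrX:12193624-12193683), was among the level genes, with signals of 1838, 1902, 1628 and 1627 in male control, male Rbpj-cKO, female control and female Rbpj-cKO. Its log2 ratios were 0.05 and -0.02, a mean of 0.02 ± 0.051 (SD, n = 2).

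The substrate and the converting enzyme were dim and showed little difference. Agt, the precursor of all angiotensins (chr8:127083142-127083201, minus strand), had signals of 17.2, 17.6, 14.8 and 16.1 in male control, male Rbpj-cKO, female control and female Rbpj-cKO. Its log2 ratios were -0.07 and 0.09, with single spots between -0.34 and 0.19. Ace (chr11:105850398-105850457) had signals of 30.7, 32.0, 25.3 and 24.4 in the same order, and log2 ratios of 0.06 and -0.03. Both probes had 4 of 4 spots well above background in every channel, and on each array the ratio was smaller than the SD of its spots.

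**Figure D2:**
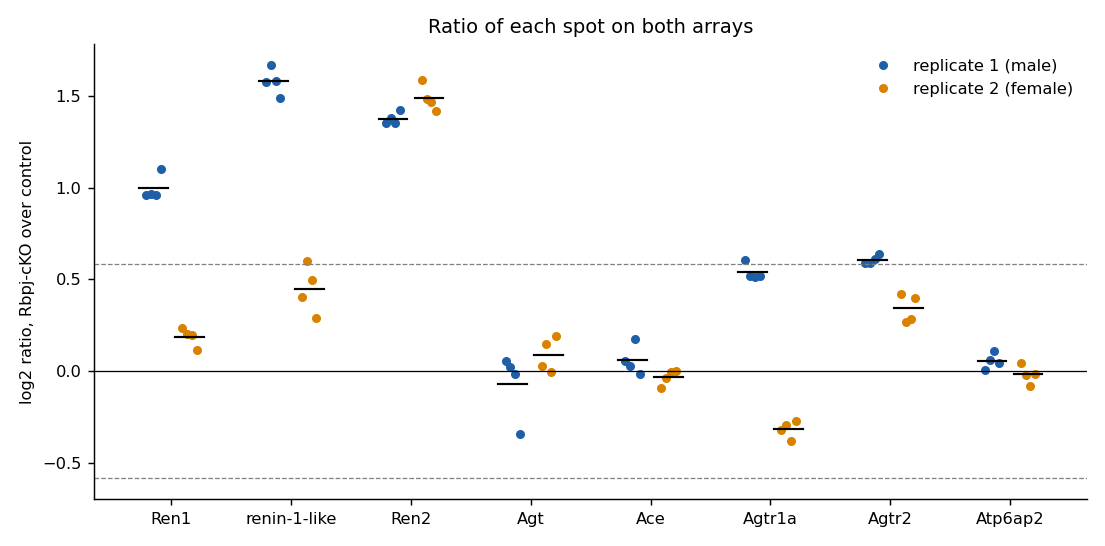
Log2 ratio of Rbpj-cKO over control (y axis) for each spot of the 7 genes and of renin-1-like (x axis) on replicate 1 (male, blue) and replicate 2 (female, orange); lines are the means of the spots and dashed lines mark 1.5-fold. By the means of the spots, Ren2 is above the upper dashed line on both arrays, and Ren1, renin-1-like and Agtr2 only on replicate 1.

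Of the 7 genes, 1 (Ren2) was at least 1.5-fold different the same way on both arrays, where 43 of 26980 probes (0.159%) were, 28 of them (0.104%) higher in Rbpj-cKO and 15 (0.0556%) lower. On replicate 1 alone 3 genes were at least 1.5-fold higher (Ren1, Ren2 and Agtr2), where 316 probes (1.17%) were. On replicate 2 alone 1 gene was (Ren2), where 266 probes (0.986%) were. By sign only, Ren1, Ren2 and Agtr2 were higher on both arrays, as were 15.4% of all probes, and none of the 7 was lower on both, as 15.5% were. These counts used the contrast that led to the choice of genes, so nothing is read from them.

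**Figure D3:**
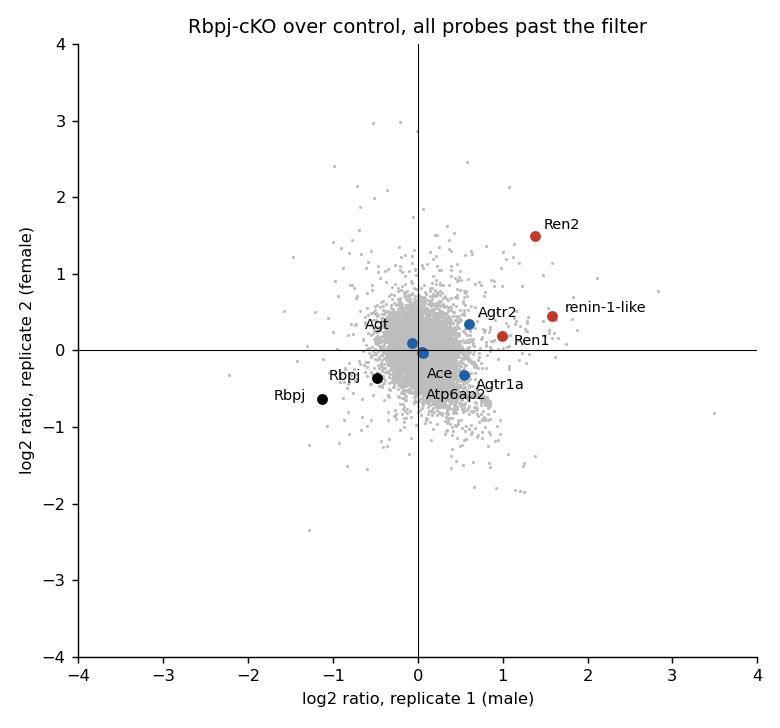
Log2 ratio of Rbpj-cKO over control on replicate 1 (x axis) against replicate 2 (y axis) for the 26980 probes past the filter (grey), with the renin probes in red, the other members in blue and the 2 Rbpj probes in black. Ren2 lies at 1.38 and 1.49, apart from the cloud, and the points of Ace and Atp6ap2 overlap near 0.

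Ren2 signal differed more between the male and the female channels than between the genotypes. This comparison was not used to choose the genes. It was itself chosen after seeing the data, so its ranks and shares are a description. The comparison sets the male against the female channel of the same genotype on normalized log2 levels. Because the dyes were exchanged between the genotypes, the mean of control and Rbpj-cKO is free of any dye effect that both arrays share. Each sex lies on 1 array, so sex and array cannot be told apart and no test was made. Ren2 levels were 11.95 in male and 8.40 in female control, a difference of 3.55 or 11.7-fold. In Rbpj-cKO they were 13.33 and 9.89, a difference of 3.44 or 10.9-fold. The mean difference of 3.50 was the 3rd highest of 26980 probes, behind the Y-linked genes Ddx3y and Eif2s3y, where the SD across all probes was 0.17.

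The other renin probes also had more signal in the male channels. Ren1 levels were 7.89 in male and 7.07 in female control, and 8.89 and 7.26 in Rbpj-cKO. The differences of 0.82 and 1.63 correspond to 1.77-fold and 3.1-fold, and the mean ranked 49th. By the processed signals, which carry no offset, the mean Ren1 difference was 2.08 in place of 1.23. The renin-1-like probe differed by 2.14 in control and 3.27 in Rbpj-cKO and ranked 5th.

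The remaining genes differed little between the male and the female control. Agtr1a had differences of 0.01 in control and 0.87 in Rbpj-cKO, and Agtr2 of 0.22 and 0.49. Ace had 0.04 and 0.13, Agt 0.06 and -0.10, and Atp6ap2 -0.06 and 0.02. Ren1 and Ren2, 2 of the 7 genes, were at least 1.5-fold higher in the male channel in both genotypes, where 90 of 26980 probes (0.334%) were. None of the 7 was at least 1.5-fold higher in the female channels, where 10 probes (0.0371%) were.

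**Figure D4:**
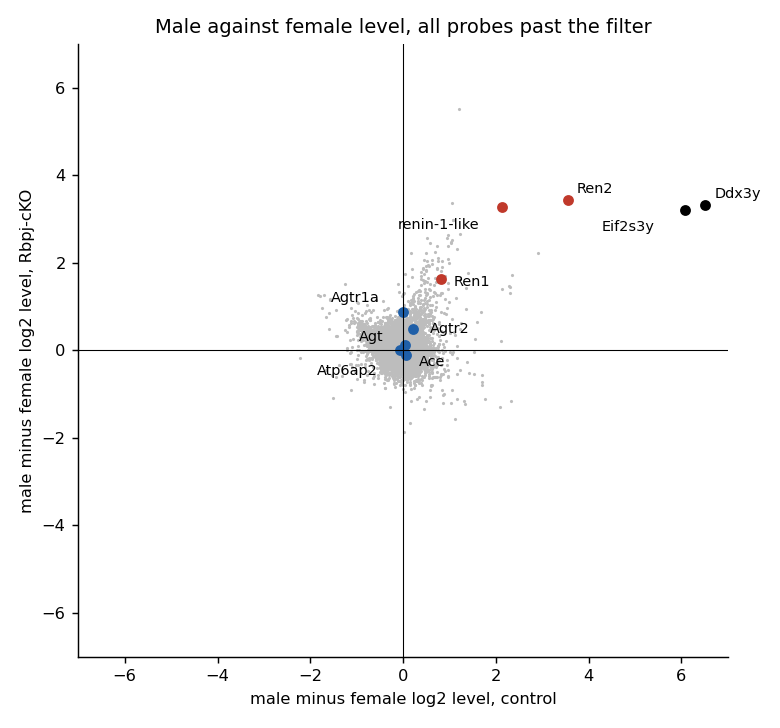
Difference of the normalized log2 level between the male and the female channel in control (x axis) and in Rbpj-cKO (y axis) for the 26980 probes past the filter (grey), with the renin probes in red, the other members in blue and 2 Y-linked genes in black. Ren2 lies at 3.55 and 3.44, and Ren1 at 0.82 and 1.63, while Agt, Ace and Atp6ap2 lie near 0.

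The order of the channels was the same for both renin genes. From high to low it was male Rbpj-cKO, male control, female Rbpj-cKO and female control. For Ren2 the steps of 1.38, 2.06 and 1.49 (log2) were each larger than the spread of the spots. For Ren1 the steps of 0.997 and 0.64 were larger than that spread, and the step of 0.19 between the female channels was not. The male control thus had more Ren2 signal than the female Rbpj-cKO. For Agtr2 the order was male Rbpj-cKO, female Rbpj-cKO, male control and female control, with steps of 0.49, 0.12 and 0.22, of which the middle one was within the spread. For Agtr1a only the step of 0.54 from male Rbpj-cKO to male control was larger than the spread. The steps of Agt, Ace and Atp6ap2 were all within it, with a whole range of at most 0.13.

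The library labelled female Rbpj-cKO had Y-linked signal, which was compared with its renin signal. Ddx3y had a processed signal of 123.1 there, against 1529 in male Rbpj-cKO, a share of 8.05%, and Eif2s3y had 216.9, a share of 8.85%. In female control these shares of the male control signal were 0.12% and 0.50%. Both probes of Uty, a dimmer Y-linked gene, had 0 of 4 spots well above background in either female channel. From female control to female Rbpj-cKO the brighter Uty probe went from 1.99 to 4.125 and the other from 2.13 to 2.17. In male Rbpj-cKO these probes had only 65.45 and 45.98, so a share of that size would be near background. Ren2 in female Rbpj-cKO was 7.50% of its male Rbpj-cKO signal, and Ren2 in female control was 5.92% of its male control signal. For all 3 renin probes the excess in the female pair was smaller than either Y-linked share of the male signal. For Agtr2 it was larger. The shares of Ren2 and renin-1-like also exceeded their whole signal in female Rbpj-cKO, 278.8 and 21.5 units. The shares carry signals over between arrays and between dyes, so they are not read as amounts. The Y-linked part of the renin signal was not tested.

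Without the female array, the log2 ratios of replicate 1 alone are 1.38 for Ren2, 0.997 for Ren1 and 0.61 for Agtr2. The male over female difference in control, 3.55 for Ren2 and 0.82 for Ren1, does not use the female Rbpj-cKO channel.

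Among named genes past the filter, those whose ratios lay nearest to Ren2 over both arrays were Resp18, Insm1, Slc18a1, Dusp26, Hey1 and Gsdmc3. Nearness was the Euclidean distance over the 2 log2 ratios of the brightest probe of each gene. Clone, predicted-gene and accession names were left out. Resp18, at a distance of 0.40, had log2 ratios of 1.19 and 1.14. Insm1, which encodes a neuroendocrine transcription factor, had 1.04 and 1.19, and Slc18a1, a vesicular monoamine transporter, had 1.48 and 0.99. Hey1, a target of Notch signalling, had 0.81 and 1.36. The second of each pair again rests on the library with Y-linked signal. Their male over female differences were smaller than that of Ren2. Resp18 had 1.15 in control and 1.2 in Rbpj-cKO, Slc18a1 0.82 and 1.31, Insm1 0.66 and 0.51, and Dusp26 0.66 and 0.57. Hey1 had 0.20 and -0.36, and Gsdmc3 by its brighter probe 0.18 and -0.88.

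Most chromaffin and sympathetic cell genes were higher in Rbpj-cKO alongside Ren2, 11 of 12 by sign on both arrays, where 16.1% of all genes were. The list was chosen with earlier results of these data known, so its counts are a description. Of the 12 listed genes, all were measured, 6 were at least 1.5-fold higher in Rbpj-cKO on both arrays, where 0.132% of 20495 genes were, and 0 were lower to that extent, where 0.0634% were. The list medians were 1.16 on replicate 1 and 0.86 on replicate 2, against 0.0012 and 0.0046 over all genes. The granin genes Chgb (2.83 and 0.77) and Chga (2.11 and 0.95) had the largest means, followed by Dbh, which makes noradrenaline (1.83 and 0.70), and Slc18a1. Pnmt, which makes adrenaline and was chosen after its values were seen, was lower on both (-0.15 and -0.11). The summed signal of the list was 10536 in male control and 38367 in male Rbpj-cKO, and 5942 and 10658 in the female channels. That order of the channels differs from the order of Ren2 in that female Rbpj-cKO and male control were close. The part of these cells in the Ren2 ratio was not tested, and the replicate 2 values use the library with Y-linked signal.

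Genes of steroid-producing tissue had ratios near 0. Of 12 adrenal cortex and gonad genes, 8 were measured, and 0 were at least 1.5-fold different the same way on both arrays. Over all genes only 0.132% were higher and 0.0634% lower to that extent, so little can be read from the 0. The medians were 0.11 and -0.08, and the summed signal was 7449 in male control, 7952 in male Rbpj-cKO, 5958 in female control and 5629 in female Rbpj-cKO. In control, 4 of the 8 were higher in the male than in the female channel and 4 lower, from -0.38 for Cyp11a1, the first enzyme of steroid synthesis, to 0.45 for Cyp17a1, an enzyme of androgen synthesis. In Rbpj-cKO 8 of 8 were higher in the male channel, from 0.04 for Nr5a1, a transcription factor of steroid-producing cells, to 0.98 for Cyp17a1. Over all probes past the filter the median difference was 0.0045 in control and 2e-04 in Rbpj-cKO. In control the male channel was green and the female red, and in Rbpj-cKO the reverse. Dye and sex thus cannot be told apart within either genotype, and nothing is read from these counts. Cyp11a1, Cyp17a1 and Nr5a1 were chosen after their values were seen. Nr0b1, Amh, which marks Sertoli cells, and Hsd17b3 did not pass the filter, and Insl3 was not found on the array under that name. Cyp11b1 and Cyp11b2, the last enzymes of glucocorticoid and aldosterone synthesis, had 0 of 4 spots well above background in every channel. The part of these tissues in the renin levels was not tested.

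**Figure D5:**
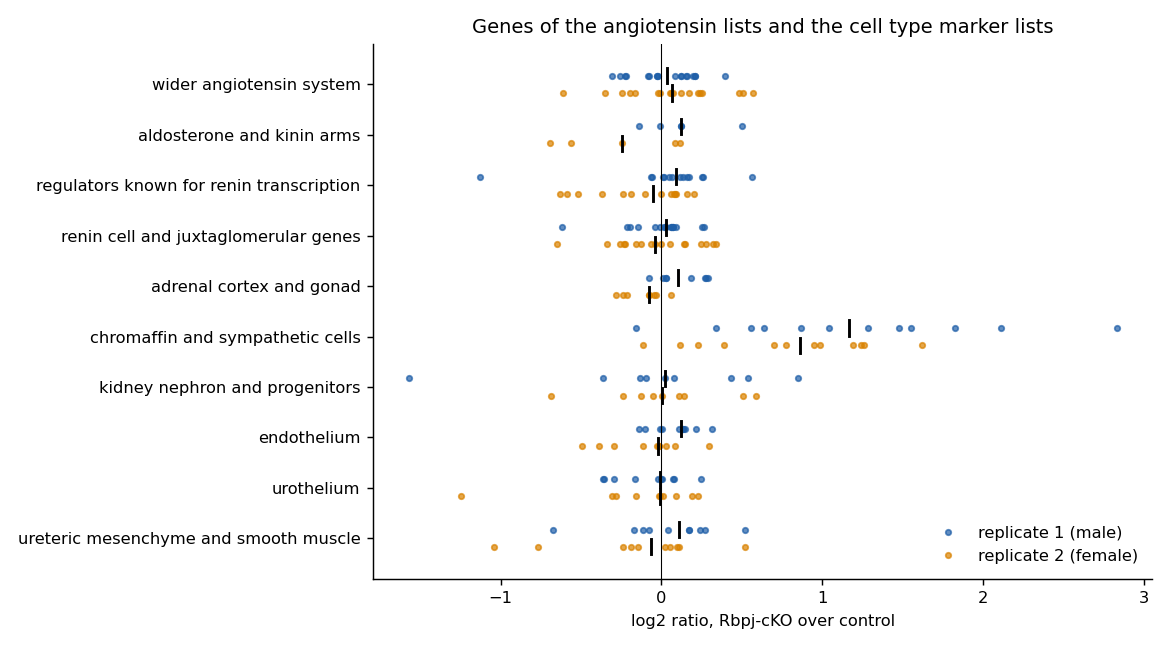
Log2 ratio of Rbpj-cKO over control (x axis) of the measured genes of the 10 lists (y axis) on replicate 1 (male, blue) and replicate 2 (female, orange); points are genes and black bars list medians. The chromaffin and sympathetic genes have medians of 1.16 and 0.86, while the wider angiotensin system has 0.03 and 0.07.

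The genes of juxtaglomerular cells had medians near 0. Of 18 listed genes, 17 were measured, 0 were at least 1.5-fold different the same way on both arrays, 4 were higher and 3 lower on both by sign, and the medians were 0.03 and -0.04. Over all genes 16.1% were higher and 14.7% lower on both by sign, and 0.132% and 0.0634% at 1.5-fold. Akr1b7, an aldose reductase found together with renin in these cells, had -0.62 and 0.34. Foxd1, a transcription factor of the stromal progenitors that give rise to them, had -0.21 and -0.23. Gja5, a connexin of renin cells, had 0.25 and 0.32 by its brightest probe. By the mean of its 2 probes past the filter Gja5 had 0.15 and 0.17. Akr1b7, Foxd1 and Gja5 were chosen after their values were seen. Kidney nephron and progenitor genes (9 of 12 measured), endothelium (10 of 10) and urothelium (10 of 10) each had 0 genes at least 1.5-fold different the same way. Among 10 genes of the ureteric mesenchyme and smooth muscle, Myocd, a coactivator of smooth muscle genes, was lower on both arrays (-0.67 and -1.04).

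The wider angiotensin system had medians near 0 as well (0.03 and 0.07). Of its 20 listed enzymes, receptors and binding proteins, 18 were measured, 0 were at least 1.5-fold different the same way on both arrays, and 5 were higher and 3 lower on both by sign. Over all genes the shares were 0.132% higher and 0.0634% lower at 1.5-fold, and 16.1% and 14.7% by sign. Agtr1b, the second type 1 receptor gene, had 0.09 and 0.12, and Mas1, the receptor of angiotensin 1-7, -0.03 and 0.05. The aminopeptidase genes Enpep and Lnpep, whose products trim angiotensin peptides or bind them, had -0.26 and 0.51, and -0.08 and 0.17. Cma1, the mast cell chymase that can replace Ace, did not pass the filter, nor did Mrgprd. Of 10 genes of the aldosterone and kinin arms 5 were measured, and 1 was higher and 1 lower on both arrays by sign, against the same 16.1% and 14.7%.

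Genes known as regulators of renin transcription were all measured. Of these 14, Rbpj was at least 1.5-fold lower on both arrays and the others had smaller or opposite ratios, with list medians of 0.09 and -0.05. Over all genes 0.0634% were lower to that extent, and Rbpj is the targeted gene. Creb1, which carries the cyclic AMP response, had 0.05 and 0.06, and Hoxd10, a homeobox factor, 0.13 and 0.16. Creb1 and Hoxd10 were chosen after their values were seen. By the mean of both Rbpj probes the ratios were -0.80 and -0.50, which puts replicate 2 short of 1.5-fold.

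The Ren1 promoter is shown because RBPJ is a known regulator of this gene. The sequence is from RefSeq (GRCm38.p6, chr1:133350524-133350673, plus strand, 150 bases ending just before the start of the transcript), with 3 matches in capitals, which are, from 5′ to 3′, GTGGGA on the minus strand, TAAATCA and TATAAA.
Ren1 promoter: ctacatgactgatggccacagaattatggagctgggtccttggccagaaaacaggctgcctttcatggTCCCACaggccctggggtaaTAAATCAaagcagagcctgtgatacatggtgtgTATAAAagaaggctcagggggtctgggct
In the 250 bases before the start, on both strands, a script looked for TGGGAA and GTGGGA (forms of the core bound by RBPJ, which can overlap), TGACG (part of the cyclic AMP response element), TATAAA (the TATA box) and TAAATCA (part of a homeobox factor element). GTGGGA was found on the minus strand from -82 to -77 and is present in 18.8% of 32851 promoter windows of the same length. TAAATCA was found from -62 to -56 and is present in 2.61% of the windows, and TATAAA from -29 to -24, in 12.4%. TGGGAA, present in 21.6% of the windows, and TGACG, in 17.8%, were not in this window. Windows were found for 5 of the 7 genes, with none for Ren2 or Agtr1a. A match describes the letters of the window and not binding, and no binding was measured here.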

How the data were processed

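RNA from E14.5 ureters (150 ng per labelling, per the labels' protocols) was measured on 2 two-colour arrays. The mean, background and processed intensity of each spot was deposited on a linear scale; the submitters' processing notes name Agilent Feature Extraction 10.7.3.1. Also deposited were, for each spot, the log10 of red over green and, in further columns, flags coded as other values of 0 or 1, per the file headers. A score per probe and array in the authors' deposited table was read as a signed fold change, because its log2 ran with the processed log2 ratios (r = 0.979 and 0.982). The sources used here do not say how it was made.

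Signals were corrected with normexp (offset 50) and normalized by loess with weight 0 for control spots (limma 3.58.1, R 4.3.3). Outlier spots were left out, spots of a probe were averaged, and ratios were turned to Rbpj-cKO over control. Levels per channel were scaled with Aquantile. Probes needed, on each array, a channel with 2 or more of the 4 spots well above background. The brightest probe stood for a gene in the lists. lmFit and eBayes tested the mean ratio two-sided over all probes, with 1 residual and 6.19 prior degrees of freedom. Of 39429 probes, 28328 were named by accession, 3400 by symbol and 7701 by the file. The steps were tested on simulated data. With 2 arrays, their number limits the precision.

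The genes and lists were chosen with earlier results of these data known. Named genes are the 7 members, Rbpj, the 6 nearest to Ren2, up to 4 genes of each list past 1.5-fold on both arrays, and 6 fixed genes of the angiotensin list. Others are marked as chosen later, and some list members are not reported.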

Additional observations from a re-analysis of the deposited data

How the results depend on the processing

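The ratio within an array is itself the paired comparison of the genotypes, and no further replicate block could be fitted because the replicate number is the array. The mean log2 ratio of Ren2 was 1.43, and 1.56 by the processed signals and 1.57 by the authors' deposited table. Leaving out an array in turn gave 1.38 to 1.49. For Ren1 the alternatives gave means of 0.59 to 0.84, and leaving out an array gave 0.19 to 0.997, the lower value without the male array. The count of members at least 1.5-fold different the same way was 1 in each alternative run with both arrays, and 1 to 3 on single arrays (1 of 775 probes of the whole table without replicate 1, 3 of 403 without replicate 2). Probes called by limma were 0, but 8 with an offset of 10, 3 by the processed signals and 10 with an intensity trend and robust moderation. Probes at least 1.5-fold the same way rose from 43 to 108 by the processed signals and to 108 by the authors' table. The causes were not tested. The order of the channels was kept by 5 of 7 members without Aquantile (not by Agt and Atp6ap2) and by 4 with the processed signals (not by Agt, Agtr2 and Atp6ap2). The mean male over female difference was 3.53 and 3.91 for Ren2 under these settings, and 1.28 and 2.08 for Ren1. By the mean of all probes the regulators had 0 genes past 1.5-fold in place of 1. Averaging over probes of the same name in the file and dropping the filter were not run for Ren1 or Ren2. By that name each has 1 probe, which passed the filter, so neither step could alter it. The renin-1-like probe, which shares 2 of its 4 annotated transcripts with the Ren1 probe, was not averaged with Ren1. The values for renin-1-like and the male over female differences were chosen after seeing the data. The mean ratios of Agt and Ace stayed between -0.0048 and 0.12 in the alternatives run with both arrays.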
